A study of Mus musculus with 8 samples.

Results

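The S100 calcium-binding protein family was followed in mouse epidermis through 10 genes, S100a1, S100a3, S100a4, S100a6, S100a8, S100a9, S100a10, S100a11, S100a14 and S100a16, taken by symbol from the 54232 gene identifiers listed for each library. All 10 were among the 19251 genes that passed the low-count filter. Expression was measured by RNA sequencing of total RNA from mechanically scraped epidermis of female REDD1 knockout (KO) and wild-type (WT) mice, which shared an F1 C57Bl x 129 background. REDD1, encoded by Ddit4, restrains mTORC1 signalling and is induced by stress and by glucocorticoids. The shaved back had been painted with the glucocorticoid fluocinolone acetonide (FA, 2 ug) 1 h before the phorbol ester TPA (4 ug), with TPA alone, or with 200 ul of the acetone vehicle, and skin was taken after 24 h. The groups were FA+TPA with 1 KO and 1 WT library, TPA with 1 KO and 1 WT library, and vehicle with 2 KO and 2 WT libraries. The sources used here give neither the allele of the knockout nor the number of animals behind a library.

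S100 proteins are small EF-hand proteins that mostly act as dimers, changing shape when calcium binds so that they can hold a partner protein. S100A8 and S100A9 pair as calprotectin, which sequesters zinc and manganese and, once released, acts as an alarmin on TLR4 and on the receptor RAGE. Neutrophils and monocytes are their main source in blood, and keratinocytes make them in wounded, psoriatic or irritated skin. Other members work mainly inside the cell, on annexins, myosin or calcium channels, and most of the genes sit in the epidermal differentiation complex.

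Total counts ranged from 16874233 to 22560098 per library. Levels are CPM, counts scaled to a common library size after TMM normalisation, and the floor set by 3 counts was 0.135 to 0.191 CPM, for counting error only. Ddit4, as the check of the knockout, had 7.25 CPM in KO and 90.3 CPM in WT FA+TPA epidermis, 4.44 CPM in KO and 64.2 CPM in WT TPA epidermis, and 18.8 and 18.6 CPM in KO against 128 and 117 CPM in WT vehicle epidermis. It was lower in every KO library than in every WT library. A list of 8 keratinocyte genes summed to between 26300 and 41200 CPM per library with none at 0. The sum does not show changes of single genes. At an edgeR adjusted p below 0.05, 2 rose and 2 fell with TPA, against 23.2% and 22.8% of all genes tested. Between FA+TPA and TPA alone, 3 were higher with FA and 1 was lower, against 5.71% and 4.31%. The vehicle libraries of a genotype carry separate numbers in the labels, which do not say whether they came from separate animals. The spread between them, on which the p-values rest at least in part, may therefore be technical. Treated groups had no replicate within a genotype, and treatment effects were fitted over both genotypes. The p-values of treatment effects and of genotype over all treatments therefore also rest on how far KO and WT differed in their response.

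The promoter windows of S100a8 and S100a9, the members with the largest treatment effects, and of S100a11, which did not pass the test in any comparison, are shown for comparison. Windows run from 250 bases before to 50 bases after the RefSeq start on GRCm38.p6, and 8 of the 10 members had at least 1, all but S100a10 and S100a14. The S100a8 window is at chr3:90668821-90669120 on the plus strand, that of S100a9 at chr3:90695672-90695971 on the minus strand and that of S100a11 at chr3:93520246-93520545 on the plus strand. Capitals mark matches to 4 motifs searched on both strands, AP-1 (TGANTCA), C/EBP (TTGCNNAA), glucocorticoid receptor (ACANNNTGT) and the TATA box (TATAAA).
S100a8: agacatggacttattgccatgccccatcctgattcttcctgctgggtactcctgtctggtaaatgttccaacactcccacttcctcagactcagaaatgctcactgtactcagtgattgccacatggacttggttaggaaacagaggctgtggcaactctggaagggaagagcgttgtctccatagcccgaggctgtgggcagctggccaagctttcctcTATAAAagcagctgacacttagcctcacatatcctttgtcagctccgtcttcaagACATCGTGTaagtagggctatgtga
S100a9: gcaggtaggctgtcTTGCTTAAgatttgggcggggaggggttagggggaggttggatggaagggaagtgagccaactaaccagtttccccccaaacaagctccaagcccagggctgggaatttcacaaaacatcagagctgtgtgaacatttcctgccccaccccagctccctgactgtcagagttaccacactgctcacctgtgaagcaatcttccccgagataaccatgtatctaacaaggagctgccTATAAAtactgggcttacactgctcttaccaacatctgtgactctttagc
S100a11: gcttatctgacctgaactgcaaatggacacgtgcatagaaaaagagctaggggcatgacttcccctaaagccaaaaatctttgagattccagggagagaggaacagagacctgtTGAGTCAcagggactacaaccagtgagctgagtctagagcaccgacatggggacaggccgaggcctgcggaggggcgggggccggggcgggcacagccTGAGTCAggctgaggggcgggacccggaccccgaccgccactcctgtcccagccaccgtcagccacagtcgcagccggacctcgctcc

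The S100a8 window held a TATA box at -30 and the glucocorticoid receptor letters at 26, counted from the annotated start. The S100a9 window held the C/EBP letters at -236 and a TATA box at the annotated start itself. S100a11 held the AP-1 letters at -136 and -38. Outside the windows shown, a window of S100a16 held the AP-1 letters at -192. A TATA box stood at -31 in the window of S100a4 and at -52 in a window of S100a3. Of all 12 windows of members, 2 held the AP-1 letters, 1 the C/EBP letters, 1 the glucocorticoid receptor letters and 4 the TATA box. Among 32851 windows of the same length over the genome, 7.8% held the AP-1 letters, 10.8% the C/EBP letters, 6.8% the glucocorticoid receptor letters and 13.6% the TATA box. These matches are descriptions of the sequence only.

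The alarmins S100a8 and S100a9 showed the largest differences of the family. S100a8 (ENSMUSG00000056054, chromosome 3, 90668978 to 90670035 on the plus strand, mm10) had 59.6 CPM in KO and 27.0 CPM in WT FA+TPA epidermis. It had 134 CPM in KO and 367 CPM in WT TPA epidermis, and 1.22 and 3.90 CPM in KO against 0.452 and 0.466 CPM in WT vehicle epidermis. Both TPA libraries were therefore above both FA+TPA libraries, and these were above every vehicle library, with no overlap. The WT vehicle values rested on 8 and 9 counts.

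S100a9 (ENSMUSG00000056071, chromosome 3, 90692632 to 90695721 on the minus strand) had 119.9 CPM in KO and 66.0 CPM in WT FA+TPA epidermis. It had 191 CPM in KO and 517 CPM in WT TPA epidermis, and 3.56 and 8.94 CPM in KO against 1.19 and 2.28 CPM in WT vehicle epidermis. The order of the treatments was that of S100a8, again with no overlap between treatments. KO was higher than WT with vehicle and with FA+TPA, and lower than WT with TPA alone.

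**Figure D1:**
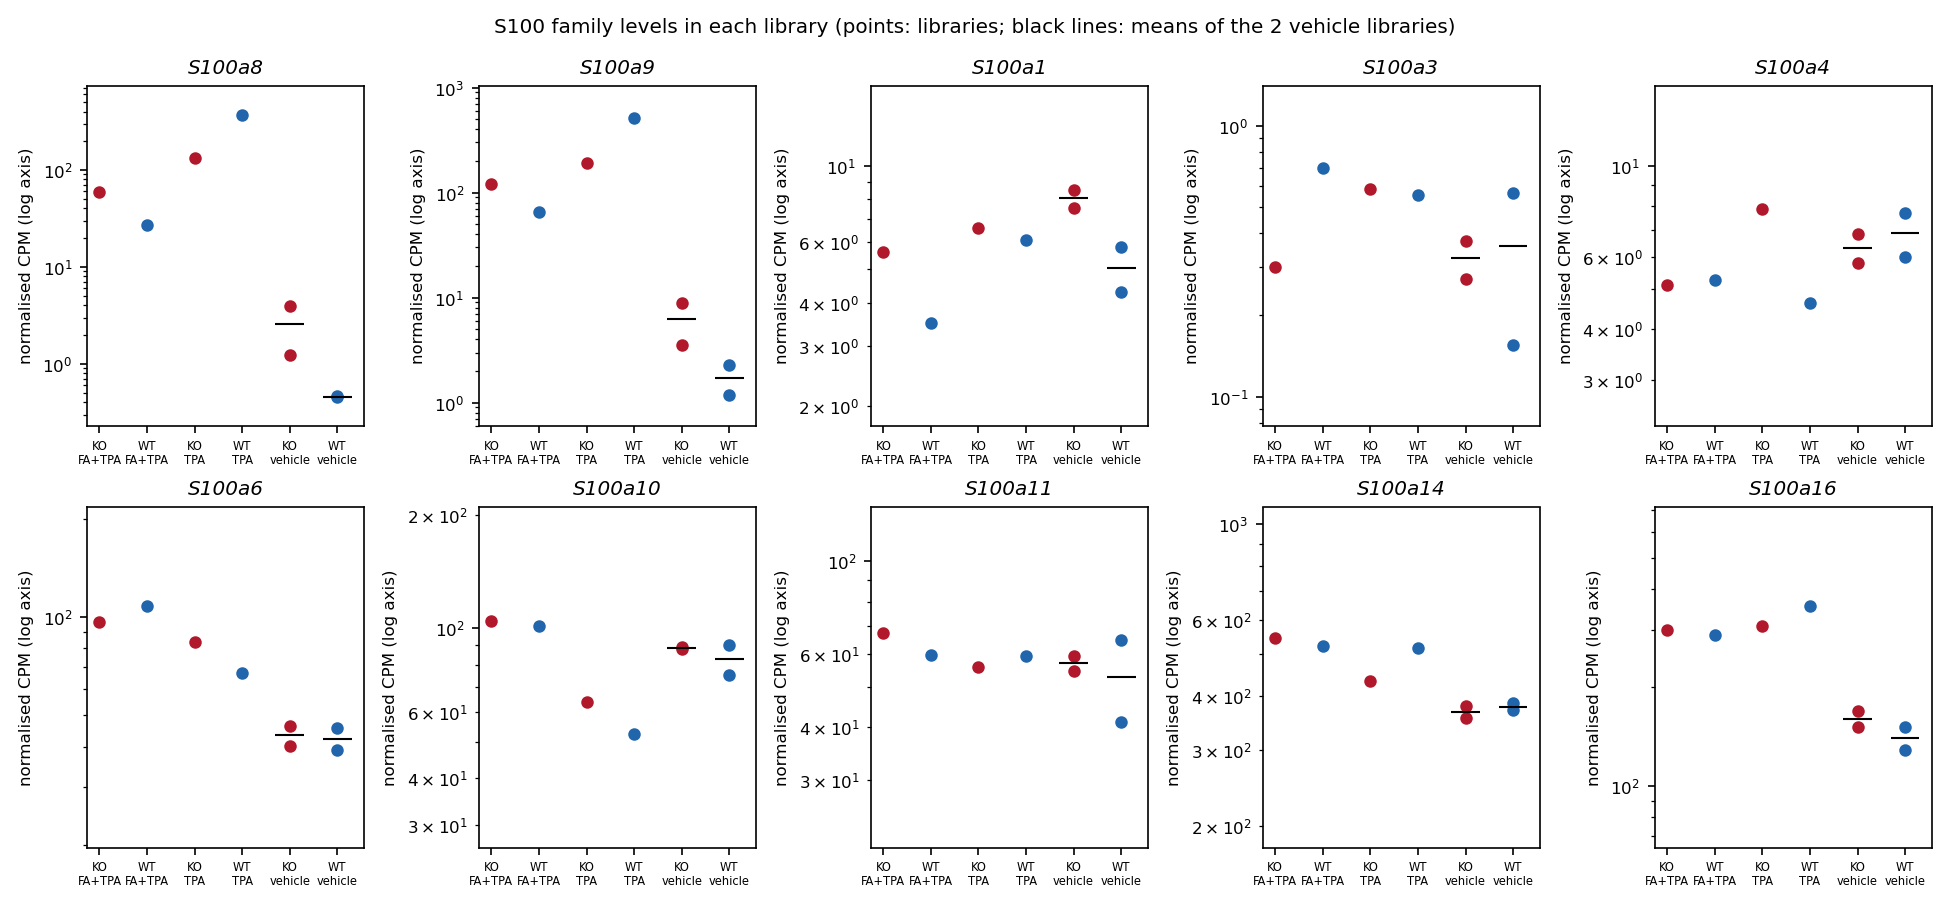
Normalised CPM (log axes) of the 10 S100 genes in each library, KO in red and WT in blue, in the order FA+TPA, TPA and vehicle, with black lines at the means of the 2 vehicle libraries of a genotype. S100a8 and S100a9 span the widest range, S100a10 is lowest in the TPA libraries, and S100a3 overlaps between treatments.

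With TPA, 6 of the 10 members passed relative to vehicle, against 46% of all genes tested. Of the members 5 rose and 1 fell, against 23.2% of genes that rose and 22.8% that fell. S100a8 rose by a log2 fold change of 7.39 ± 0.61 (SE; edgeR adjusted p = 5.29e-06) and S100a9 by 6.56 ± 0.56 (edgeR adjusted p = 6.97e-06), equal to 168-fold and 94.5-fold. Both alarmins passed under every alternative run, but their size rested on the TPA libraries. Without the WT TPA library the log2 fold changes were 5.91 and 5.10, and without the KO TPA library 8.88 and 7.85. Leaving out KO vehicle replicate 2 gave 8.39 and 7.20.

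Within a genotype, the S100a8 ratio of TPA to vehicle was 52.3 in KO and 800 in WT. Here WT vehicle averaged 0.459 ± 0.0094 CPM and KO vehicle 2.56 ± 1.9 CPM (SD, n = 2 each). The WT vehicle SD does not cover counting error, which was larger at the few counts given above, so the WT ratio is imprecise. The S100a9 ratio was 30.5 in KO and 299 in WT. The KO ratios were smaller than the WT ratios at both ends, since KO was higher with vehicle and lower with TPA. The test of this difference, the interaction of genotype with TPA, gave −3.92 ± 0.66 for S100a8 (edgeR adjusted p = 0.156) and −3.28 ± 0.58 for S100a9 (edgeR adjusted p = 0.184), so neither passed over all genes. Lgals4, a galectin gene, was the 1 gene of all tested that passed (0.00519%). An unadjusted edgeR p below 0.05 was found for 1014 of the 19251 genes tested, close to the number expected by chance at that threshold. Both alarmins passed in 5 of 13 alternatives, which were the fit without a low-count filter (−3.98 and −3.34) and those that left out any 1 of the 4 vehicle libraries and so had 1 residual degree of freedom.

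Among the other 8 members, the log2 fold change with TPA ran from −0.57 to 1.15 with a median of 0.21, where the median of all genes was −0.03. S100a16 (chromosome 3, 90537254 to 90543151, plus strand), a broadly expressed member, had 301 CPM in KO and 289 CPM in WT FA+TPA epidermis, 308 and 356 CPM in KO and WT TPA epidermis, and 151 and 169.6 CPM in KO against 129 and 151 CPM in WT vehicle epidermis. All treated libraries lay above all vehicle libraries, and S100a16 rose 2.22-fold with TPA (log2 1.15 ± 0.11, edgeR adjusted p = 1.27e-05). S100a6 (chromosome 3, 90612882 to 90624181, plus strand), also called calcyclin, had 96.4 CPM in KO and 108 CPM in WT FA+TPA epidermis, 83.9 and 67.4 CPM in KO and WT TPA epidermis, and 40.1 and 46.4 CPM in KO against 39.1 and 45.6 CPM in WT vehicle epidermis. The treated libraries were again all above the vehicle libraries, and S100a6 rose 1.77-fold with TPA (log2 0.82 ± 0.11, edgeR adjusted p = 0.000171).

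S100a14 (chromosome 3, 90526856 to 90528837, plus strand), an epithelial member, had 545 CPM in KO and 522 CPM in WT FA+TPA epidermis, 433 and 516 CPM in KO and WT TPA epidermis, and 356 and 378 CPM in KO against 370.3 and 384 CPM in WT vehicle epidermis. It rose 1.27-fold with TPA (log2 0.35 ± 0.09, edgeR adjusted p = 0.00868), with no overlap between treated and vehicle libraries. That call was lost without the WT TPA library (0.22, edgeR adjusted p = 0.205) and with scaling by library size only (0.12, edgeR adjusted p = 0.349), over a range of 0.0017 to 0.349 in all alternatives.

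S100a10, also called p11, is the partner of annexin A2 in a complex at the cell membrane, and was the 1 member that fell with TPA. S100a10 (chromosome 3, 93555080 to 93564643, plus strand) had 104.5 CPM in KO and 102 CPM in WT FA+TPA epidermis, 63.7 CPM in KO and 52.2 CPM in WT TPA epidermis, and 88.1 and 89.3 CPM in KO against 75.1 and 90.3 CPM in WT vehicle epidermis. The TPA libraries were the lowest, below every vehicle library, and the FA+TPA libraries the highest. S100a10 fell with TPA by 0.57 ± 0.10 on the log2 scale (edgeR adjusted p = 0.000891).

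The remaining members did not pass with TPA. S100a11 (chromosome 3, 93520488 to 93526287, plus strand), a partner of annexin A1, had 67.3 and 59.5 CPM in KO and WT FA+TPA epidermis, 55.8 and 59.2 CPM in KO and WT TPA epidermis, and 54.6 and 59.4 CPM in KO against 41.2 and 64.6 CPM in WT vehicle epidermis. Its TPA and vehicle libraries overlapped and its log2 difference was 0.07 ± 0.15 (edgeR adjusted p = 0.748). S100a11 has a pseudogene copy in the annotation, so that shared reads may have been split or dropped in counting.

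S100a4 (chromosome 3, 90603771 to 90606045, plus strand), which binds non-muscle myosin and is common in fibroblasts and migrating cells, had between 4.62 and 7.86 CPM in the 8 libraries, both of these in TPA epidermis. The FA+TPA libraries, at 5.13 CPM in KO and 5.28 CPM in WT, lay below the vehicle libraries, at 6.85 and 5.81 CPM in KO and 5.99 and 7.71 CPM in WT, but the difference did not pass (log2 −0.34 ± 0.22, edgeR adjusted p = 0.278). Its log2 difference with TPA was −0.08 ± 0.21 (edgeR adjusted p = 0.798). Its exons share 302 bases with the annotated transcript Gm42674 on the same strand, and reads there cannot be assigned to either gene with certainty. A list of 6 fibroblast genes summed to 349 and 263 CPM in KO and WT FA+TPA epidermis. The sum was 386 and 513 CPM in KO and WT TPA epidermis and 621 to 1170 CPM in vehicle epidermis. The list was split with TPA, where 2 genes rose and 3 fell, against 23.2% and 22.8% of all genes tested. Pdgfra rose (2.04 ± 0.37, edgeR adjusted p = 0.0011) and Col3a1 fell (−0.86 ± 0.19, edgeR adjusted p = 0.00431). The part of fibroblasts in the S100a4 values was not tested.

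S100a1 (chromosome 3, 90511034 to 90514392, minus strand), a calcium-handling protein of striated muscle, had 5.62 CPM in KO and 3.50 CPM in WT FA+TPA epidermis, 6.60 and 6.10 CPM in KO and WT TPA epidermis, and 7.55 and 8.54 CPM in KO against 4.30 and 5.79 CPM in WT vehicle epidermis. Treatments overlapped, and the log2 difference with TPA was −0.02 ± 0.19 (edgeR adjusted p = 0.948). S100a3 (chromosome 3, 90560578 to 90602702, plus strand), a hair cuticle protein, had 0.155 to 0.700 CPM, resting on 3 to 13 counts per library, so that a difference was hardly detectable at this depth. Its log2 difference with TPA was 0.76 ± 0.52 (edgeR adjusted p = 0.261). Its exons share 144 bases with Gm42674 on the same strand and 117 bases with Gm23464 on the opposite strand, so that some of these few reads cannot be assigned with certainty. Of 11 hair shaft genes, 1 passed the low-count filter, and their summed level was 3.99 and 3.56 CPM in KO and WT FA+TPA epidermis, 0.359 and 0.493 CPM in KO and WT TPA epidermis, and 4.36 to 6.16 CPM in vehicle epidermis. The gene that passed, the hair keratin Krt32, fell with TPA (−5.09 ± 0.36, edgeR adjusted p = 1.9e-06) and rose with FA (4.54 ± 0.40, edgeR adjusted p = 0.000119). Krt32 did not pass the low-count filter through the TPA libraries, so its fall with TPA and rise with FA were fixed in part by that filter. The part of hair shaft material in the S100a3 values was not tested.

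**Figure D2:**
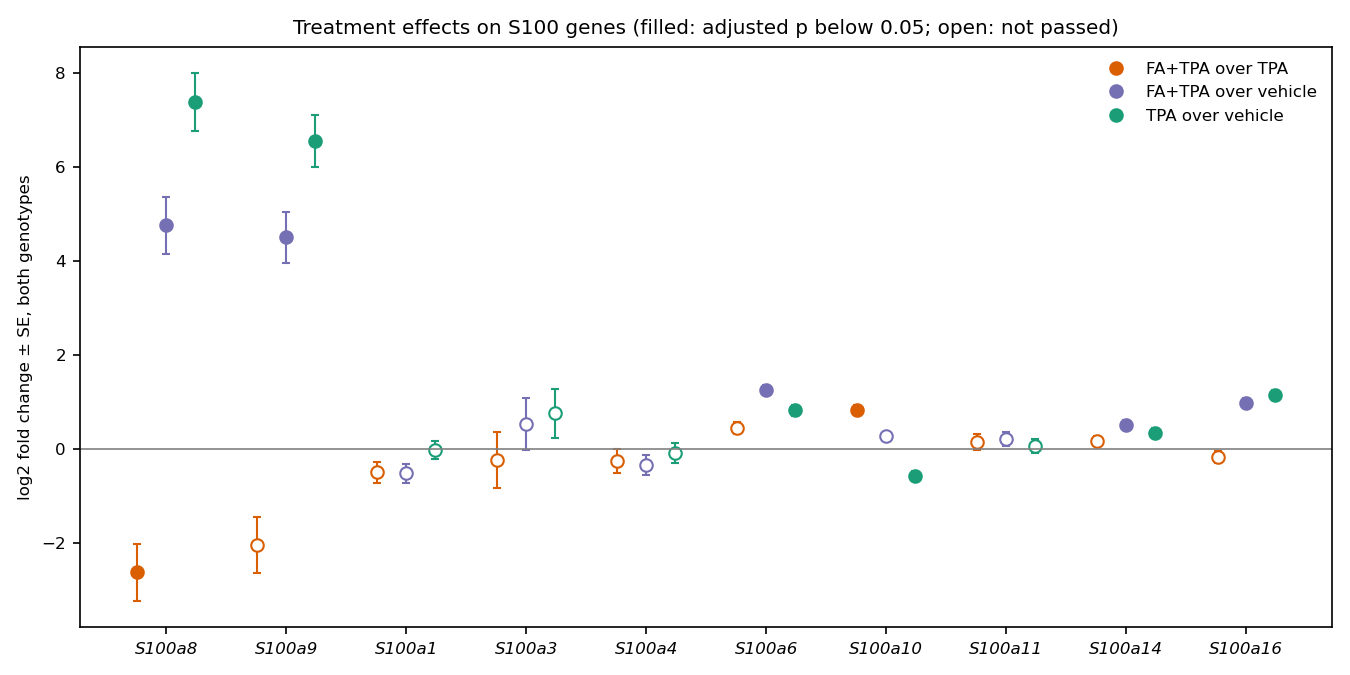
Log2 fold changes (vertical axis, ± SE) of the 10 S100 genes over both genotypes for FA+TPA over TPA, FA+TPA over vehicle and TPA over vehicle, filled where the edgeR adjusted p was below 0.05. S100a8 and S100a9 lie at 7.39 and 6.56 for TPA, and S100a10 is below 0 for TPA and above 0 for FA+TPA over TPA.

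With FA before TPA, an alarmin and S100a10 passed the test relative to TPA alone. Of the 10 members, 1 rose and 1 fell relative to TPA, against 5.71% of all genes tested that rose and 4.31% that fell (10% in all). This comparison shares the TPA libraries with TPA against vehicle, so the comparisons are not independent of each other. S100a8 fell by 2.63 ± 0.61 on the log2 scale (edgeR adjusted p = 0.0207), and S100a9 differed by −2.05 ± 0.59 without passing (edgeR adjusted p = 0.0531). S100a10 rose 1.78-fold (log2 0.83 ± 0.11, edgeR adjusted p = 0.00124) and did so under every alternative run.

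The S100a8 call with FA depended on single libraries and on the tool. It was lost without the KO FA+TPA library (−3.32, edgeR adjusted p = 0.0544), without the WT FA+TPA library (−1.90, edgeR adjusted p = 0.311) and without the WT TPA library (−0.98, edgeR adjusted p = 0.212). DESeq2 (−3.04, adjusted p = 0.0672) and limma-voom (−2.33, adjusted p = 0.2) did not call it either, within a range of 2.52e-13 to 0.311 over all alternatives, and without the KO TPA library it was −3.98. S100a9 passed in 6 of 16 alternatives and was −0.45 without the WT TPA library and −3.21 without the KO TPA library.

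Within a genotype, the S100a8 ratio of FA+TPA to TPA was 0.445 in KO and 0.0735 in WT, and the S100a9 ratio was 0.629 in KO and 0.128 in WT. The ratios were below 1 in both genotypes, each from 1 library per group. The interaction of genotype with FA was 2.60 ± 0.51 for S100a8 (edgeR adjusted p = 0.656) and 2.30 ± 0.55 for S100a9 (edgeR adjusted p = 0.943). No gene of all tested passed this interaction with edgeR (0%), and DESeq2 called 7. An unadjusted edgeR p below 0.05 was found for 613 genes, fewer than expected by chance at that threshold. The alarmins passed in 4 of 11 alternatives, each leaving out a vehicle library and so having 1 residual degree of freedom. Vehicle libraries do not enter this interaction, and the values hardly moved (2.60 to 2.61 for S100a8 and 2.30 to 2.31 for S100a9).

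The other members had log2 differences with FA from −0.50 to 0.83 and a median of −0.01, where the median of all genes was 0.01. S100a6 differed by 0.44 ± 0.13 (edgeR adjusted p = 0.0629), with both FA+TPA libraries above both TPA libraries. S100a14 differed by 0.17 ± 0.10 and S100a16 by −0.17 ± 0.13, which did not pass (edgeR adjusted p = 0.373 and 0.476). S100a1, S100a3, S100a4 and S100a11 differed by −0.50 ± 0.23, −0.23 ± 0.60, −0.26 ± 0.26 and 0.14 ± 0.17 (edgeR adjusted p = 0.216, 0.868, 0.601 and 0.693).

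**Figure D3:**
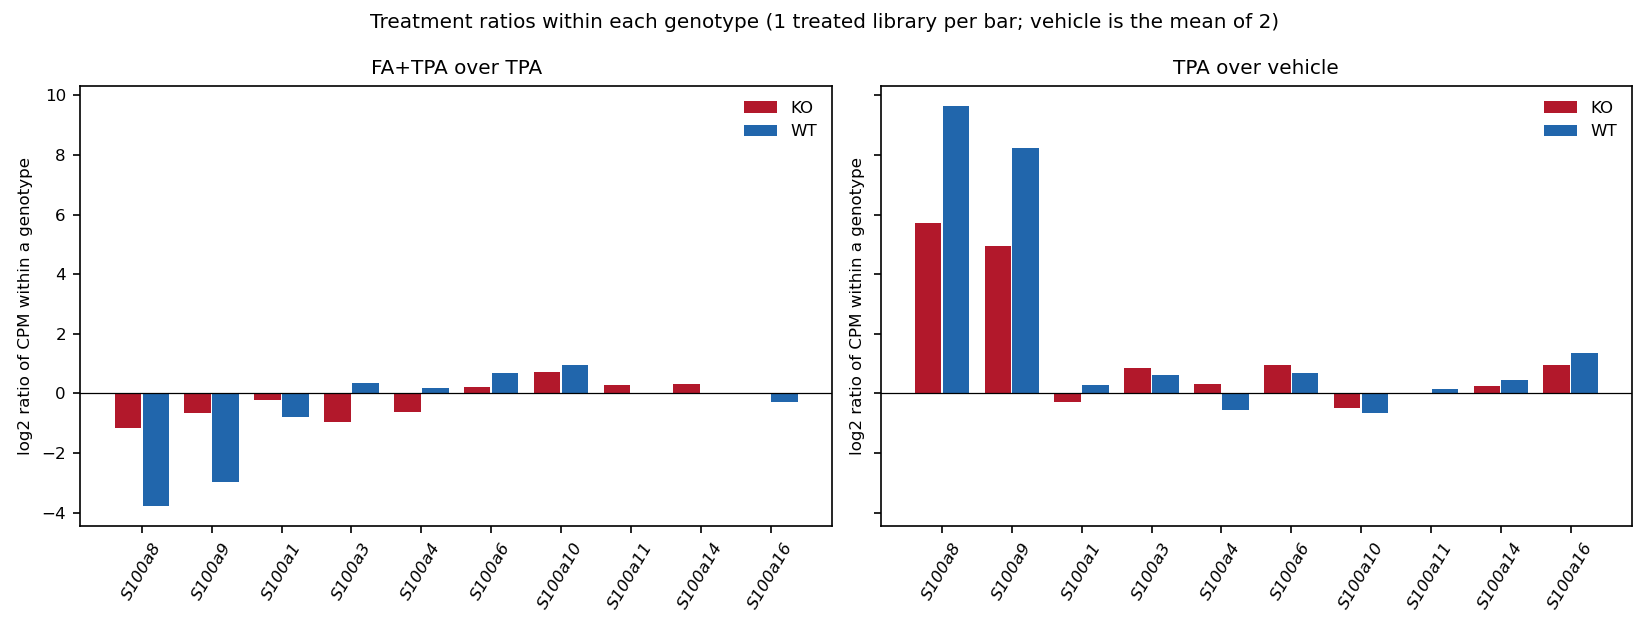
Log2 ratios of CPM within each genotype for FA+TPA over TPA (left) and TPA over vehicle (right), KO bars left of WT bars, from 1 treated library per group and the mean of 2 vehicle libraries. For S100a8 the TPA bars reach 5.71 in KO and 9.64 in WT, and the FA bars −1.17 in KO and −3.77 in WT.

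Relative to vehicle, 5 members were higher in FA+TPA epidermis and none was lower, against 17.4% of all genes tested that were higher and 14.2% that were lower (31.6% in all). S100a8 was higher by 4.76 ± 0.61 (edgeR adjusted p = 0.000222), S100a9 by 4.51 ± 0.54 (edgeR adjusted p = 0.000143), S100a6 by 1.26 ± 0.11 (edgeR adjusted p = 2.12e-05), S100a16 by 0.98 ± 0.11 (edgeR adjusted p = 9.47e-05) and S100a14 by 0.52 ± 0.09 (edgeR adjusted p = 0.00135) on the log2 scale. The S100a8 value ran from 3.91 without the KO FA+TPA library to 5.89 without KO vehicle replicate 2, and S100a9 was 5.28 without the same vehicle library. The S100a14 call was lost without the KO FA+TPA library (0.43, edgeR adjusted p = 0.0591, in a range of 8.55e-06 to 0.0591 over alternatives). S100a10, at 0.27 ± 0.10, and S100a1, at −0.52 ± 0.20, did not pass (edgeR adjusted p = 0.0542 and 0.0717).

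The share of the family's reads that came from S100a8 and S100a9 shows the contrast with the other 8 members in each library. It was 13.75% in KO (95% Wilson interval 13.3 to 14.22) and 7.85% in WT FA+TPA epidermis (7.48 to 8.25). It was 25.27% in KO (24.77 to 25.77) and 45.4% in WT TPA epidermis (44.85 to 45.95). In vehicle epidermis it was 0.67% and 1.67% in KO (intervals 0.56 to 0.82 and 1.49 to 1.87) and 0.25% and 0.36% in WT (0.17 to 0.35 and 0.28 to 0.48). The intervals, which cover counting error only, do not overlap between treatments. The other 8 members summed to 1126 and 1090 CPM in KO and WT FA+TPA epidermis, 960.3 and 1063 CPM in KO and WT TPA epidermis, and 665.2 to 757.2 CPM in vehicle epidermis. S100a9 exceeded S100a8 per kilobase of exon in every library, by 2.67 and 3.25 in KO and WT FA+TPA, 1.89 and 1.87 in KO and WT TPA, 3.89 and 3.04 in KO vehicle and 3.49 and 6.5 in WT vehicle epidermis. These ratios depend on the length used and were smaller with the longest transcript. Mean S100a9 and S100a8 were then 682 and 503 CPM per kb with TPA, and 179 and 86.9 CPM per kb with FA+TPA.

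**Figure D4:**
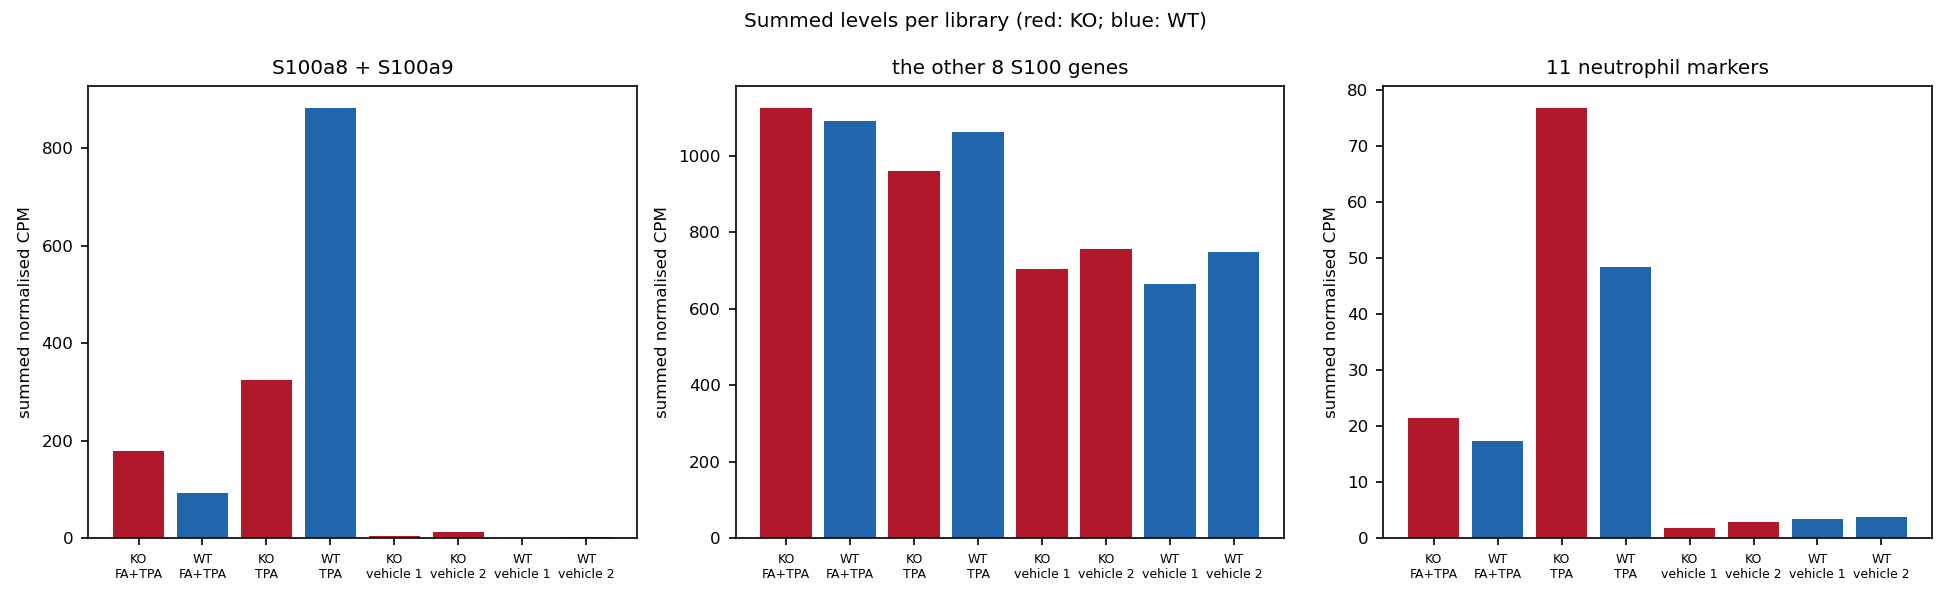
Summed CPM per library (bars, KO red and WT blue) of S100a8 and S100a9, of the other 8 S100 genes and of 11 neutrophil markers. The alarmins are highest in the WT TPA library (884 CPM) and the neutrophil markers in the KO TPA library (76.8 CPM).

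Scaled per kilobase of exon, the order of levels in TPA epidermis was S100a9 (mean 678 CPM per kb), S100a8 (361), S100a14 (275), S100a16 (206), S100a11 (112), S100a6 (55.4), S100a10 (47.8), S100a4 (10.7), S100a1 (9.15) and S100a3 (0.101). In FA+TPA epidermis S100a14 led with 309 CPM per kb, ahead of S100a16 (183), S100a9 (178), S100a11 (124), S100a10 (85.0), S100a6 (74.9), S100a8 (62.4), S100a4 (8.91), S100a1 (6.57) and S100a3 (0.0885). In vehicle epidermis the order was S100a14 (215 CPM per kb), S100a11 (108), S100a16 (92.9), S100a10 (70.7), S100a6 (31.3), S100a4 (11.3), S100a1 (9.43), S100a9 (7.65), S100a8 (2.18) and S100a3 (0.0604). The alarmins thus stood near the bottom of the family with vehicle and at its top with TPA. Values overlapped in TPA epidermis between S100a9 and S100a8, S100a8 and S100a14, S100a6 and S100a10, and S100a4 and S100a1, and in FA+TPA epidermis between S100a16, S100a9 and S100a11 as neighbours and between S100a6 and S100a8. Vehicle values overlapped between S100a11 and S100a16 and between each neighbour from S100a4 to S100a8, and with the longest transcript as length the vehicle order after S100a14 became S100a16 (133), S100a10 (125) and S100a11 (108). With that length S100a16 (295) passed S100a14 (282) in TPA epidermis, and S100a10 (150) and S100a6 (131) passed S100a11 (124) in FA+TPA epidermis. The per-kilobase levels of S100a6, S100a10 and S100a3 depend most on this choice, as for S100a10 in TPA epidermis (84.6 in place of 47.8 CPM per kb).

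Genotype alone moved no member past the threshold. Over all treatments, 0 of 10 members passed with edgeR, against 3.58% of all genes tested (1.98% higher and 1.6% lower in KO). In vehicle epidermis 0 of 10 passed, against 2.17% (1.44% higher and 0.727% lower in KO). At an unadjusted edgeR p below 0.05 there was 1 member over all treatments, S100a1, and 3 with vehicle, S100a8, S100a9 and S100a1. At the adjusted threshold DESeq2 and limma-voom, like edgeR, called 0 members in either comparison. In vehicle epidermis S100a8 differed by 2.47 ± 0.56 (edgeR unadjusted p = 0.00131, adjusted p = 0.0556) and S100a9 by 1.84 ± 0.42 (unadjusted p = 0.00141, adjusted p = 0.0573), with both KO libraries above both WT libraries. These values lay close to the threshold, and S100a8 passed in 11 and S100a9 in 10 of 18 alternatives. These passes are not independent of each other. Fits without a treated library kept the same vehicle libraries, since a single treated library is fitted exactly. Fits without a vehicle library had 1 residual degree of freedom and gave the lowest adjusted p. A further pass crossed the replicate numbers after the data were seen. Without KO vehicle replicate 2 the differences were 1.40 for S100a8 and 1.02 for S100a9. Over the alternatives the adjusted p ran from 3.92e-12 to 0.181 for S100a8 and from 9e-13 to 0.371 for S100a9, with the highest value from limma-voom for S100a8 and from DESeq2 for S100a9.

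Over all treatments S100a8 differed between KO and WT by 0.26 ± 0.53 and S100a9 by 0.35 ± 0.49 (edgeR adjusted p = 0.889 and 0.819). S100a8 passed without the KO TPA library (1.49, edgeR adjusted p = 0.0377) and without the WT TPA library (1.52, edgeR adjusted p = 0.0357), and S100a9 without the WT TPA library (1.29, edgeR adjusted p = 0.0485), while the highest adjusted p over alternatives were 0.989 and 0.991. S100a1 was higher in KO than in WT in each treatment, by 0.53 ± 0.16 over all treatments (edgeR adjusted p = 0.11) and 0.67 ± 0.22 with vehicle (edgeR adjusted p = 0.212), which did not pass. A list of 8 skeletal muscle genes, with none at 0, summed to 150 and 152 CPM in KO and WT FA+TPA epidermis, 46.4 and 28.9 CPM in KO and WT TPA epidermis, and 221 and 77.6 CPM in KO against 30.7 and 10.1 CPM in WT vehicle epidermis. Of these, 6 were higher in KO vehicle epidermis, led by Tnni2 and Tnnt3, where 1.44% of all genes tested were higher. The part of these muscle genes in the S100a1 values was not tested.

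Neutrophil markers were read beside the alarmins. Of 11 markers, 4 passed the low-count filter, Csf3r and Mmp8 among them through the treated libraries alone, so that their rise with TPA was fixed by the filter in part. Csf3r, the G-CSF receptor, differed by 6.51 ± 0.37 with TPA (edgeR adjusted p = 4.65e-07) and −2.67 ± 0.34 with FA (edgeR adjusted p = 0.000943). Cxcr2, a chemokine receptor of neutrophils, differed by 4.41 ± 0.22 with TPA (edgeR adjusted p = 2.57e-07) and −1.44 ± 0.24 with FA (edgeR adjusted p = 0.00358). Mmp8, a collagenase of neutrophil granules, rose with TPA by 4.72 ± 0.83 (edgeR adjusted p = 0.000925) and did not pass with FA (−0.89 ± 0.73, edgeR adjusted p = 0.527). Mpo, the granule myeloperoxidase, had the opposite signs without passing, −0.70 ± 0.58 with TPA and 1.92 ± 0.59 with FA (edgeR adjusted p = 0.353 and 0.0691). The 11 markers summed to 21.4 and 17.3 CPM in KO and WT FA+TPA epidermis, 76.8 and 48.4 CPM in KO and WT TPA epidermis, and 1.88 to 3.83 CPM in vehicle epidermis. Between the TPA libraries the sum was higher in KO, whereas S100a8 and S100a9 were higher in WT. Elane was at 0 in every library and Ly6g, a defining surface marker, had 1 count in all 8 libraries together, below the floor of 3 counts.

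Of 9 macrophage markers, 6 rose and 1 fell with TPA, against 23.2% of all genes tested that rose and 22.8% that fell. Mrc1 led the rises (5.24 ± 0.41, edgeR adjusted p = 4.04e-06), and the marker that fell was Csf1r (−0.71 ± 0.14, edgeR adjusted p = 0.0016). Adgre1 and Lyz2 did not pass (−0.34 ± 0.25 and 0.18 ± 0.37, edgeR adjusted p = 0.299 and 0.721). With FA, 2 rose and 1 fell, against 5.71% and 4.31% of all genes tested. Those that rose were C1qa (1.22 ± 0.18, edgeR adjusted p = 0.00175) and C1qc (1.04 ± 0.23, edgeR adjusted p = 0.0169). The marker that fell with FA was Mrc1 (−2.44 ± 0.45, edgeR adjusted p = 0.00645). They summed to 178 and 149 CPM in KO and WT FA+TPA epidermis, 325 and 135 CPM in KO and WT TPA epidermis, and 113 to 133 CPM in vehicle epidermis. The part of either cell type in the alarmin values was not tested, and in these bulk samples the number of cells and the RNA per cell cannot be told apart.

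The partners of the alarmins were read from lists. Of 10 receptors and adaptors, 6 rose with TPA and none fell, where 23.2% of all genes rose, and 3 fell with FA, where 4.31% of all genes did. Myd88, the adaptor of toll-like receptors, rose with TPA by 1.10 ± 0.09 (edgeR adjusted p = 4.14e-06) and fell with FA by 0.66 ± 0.10 (edgeR adjusted p = 0.00268). Cd14, the co-receptor of TLR4, rose by 3.21 ± 0.30 (edgeR adjusted p = 1.08e-05) and fell with FA by 1.85 ± 0.33 (edgeR adjusted p = 0.00602). Relative to vehicle, 4 were higher in FA+TPA epidermis, where 17.4% of all genes tested were higher. The median log2 difference of the list was 0.64 with TPA and −0.38 with FA. Ager, which encodes RAGE, differed by −0.06 ± 0.47 with TPA (edgeR adjusted p = 0.93).

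Of 12 transcription factors known upstream of the alarmin genes, 11 were tested, and 8 rose with TPA and none fell, where 23.2% of all genes tested rose and 22.8% fell. Stat3 rose by 1.20 ± 0.09 (edgeR adjusted p = 2.1e-06) and Junb by 1.16 ± 0.14 (edgeR adjusted p = 5.88e-05). With FA, Stat3 fell by 0.88 ± 0.10 (edgeR adjusted p = 0.000551), Fosl1 rose by 0.82 ± 0.20 (edgeR adjusted p = 0.0232) and the other 9 did not pass. Stat3 had 225 and 209.7 CPM in KO and WT FA+TPA epidermis, 375 and 427 CPM in KO and WT TPA epidermis, and 161 to 185 CPM in vehicle epidermis, the same order of treatments as the alarmins.

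Of 6 annexins and membrane partners of S100a10, S100a11 and S100a6, none rose with TPA and 2 fell, a share near the 22.8% of all genes that fell. Ahnak fell by 0.57 ± 0.10 (edgeR adjusted p = 0.00117) and Anxa1 by 0.54 ± 0.11 (edgeR adjusted p = 0.00254). Ahnak encodes a giant scaffold that binds the S100a10 and annexin A2 complex. Anxa2 itself differed by −0.15 ± 0.09 with TPA and −0.02 ± 0.11 with FA (edgeR adjusted p = 0.213 and 0.941). Anxa11 rose with FA by 0.51 ± 0.11 (edgeR adjusted p = 0.0167).

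Position in the genome was set beside these effects. Of the members, 8 have their starts within 181.3 kb on chromosome 3, and S100a11 and S100a10 start 3006.1 and 3040.7 kb from S100a1. S100a8 and S100a9 lie 154.6 and 181.3 kb from S100a1. The nearest gene of the family to them, S100a7a, a relative of human psoriasin, starts 15.0 kb before S100a8 and was not in the list of 10. S100a7a had 0.785 and 1.27 CPM in KO and WT FA+TPA epidermis, 1.53 and 8.08 CPM in KO and WT TPA epidermis, and 0.207 to 0.422 CPM in vehicle epidermis. It rose with TPA by 3.71 ± 0.49 (edgeR adjusted p = 0.000137) and fell with FA by 2.01 ± 0.53 (edgeR adjusted p = 0.0377), with its highest value in the WT TPA library. S100a7a had only 4 to 9 counts in the vehicle libraries and passed the low-count filter through the treated libraries, so its rise with TPA was fixed in part by that filter. On the other side of the cluster S100a13 differed by −0.15 ± 0.18 with TPA (edgeR adjusted p = 0.534). S100b, a glial and melanocyte member on chromosome 10, had 0.466 to 1.30 CPM and did not pass with TPA (edgeR adjusted p = 0.351). S100g reached at most 0.565 CPM, S100a2, S100a5 and S100z had 0 to 3 counts in each library, and none of these 4 was tested. S100a7l2 was not matched by symbol and was not analysed here.

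**Figure D5:**
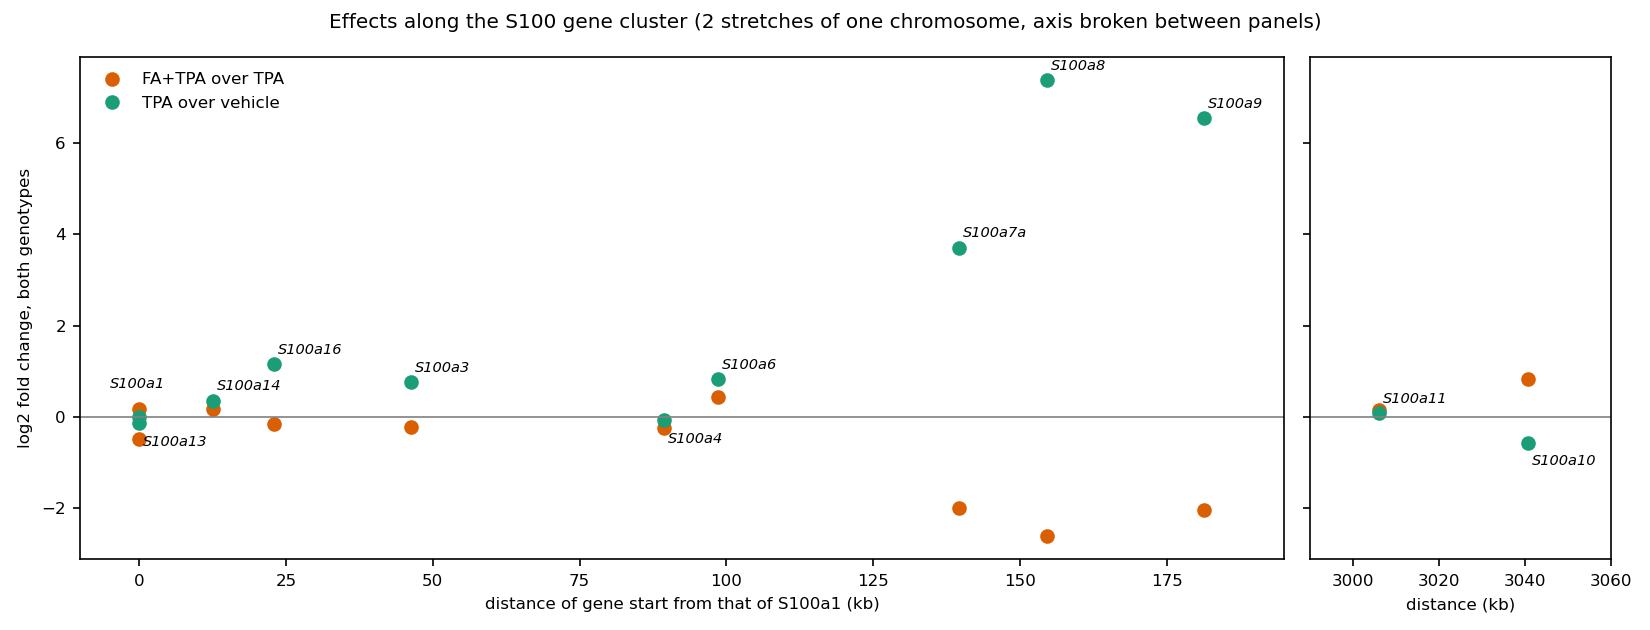
Log2 fold change (vertical axis) of S100 genes against the distance of the gene start from that of S100a1 in kilobases, in the 2 stretches of the chromosome that hold them, for FA+TPA over TPA and TPA over vehicle. S100a7a, S100a8 and S100a9, between 139.6 and 181.3 kb, lie above 3 for TPA and near or below −2 for FA+TPA over TPA.

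Across the 8 libraries, which share treatments and scaling, the genes outside the family whose log2 CPM was most like the mean of S100a8 and S100a9 were Nomo1 (Pearson r = 0.999), Rptn, E2f3, Bglap3 and Thbd (r = 0.993 each) among 10823 genes. Pearson r does not measure the size of a change. The log2 fold changes with TPA were 0.69 for Nomo1, 6.28 for Rptn, 1.13 for E2f3, 3.16 for Bglap3 and 2.29 for Thbd. Those of S100a8 and S100a9 were 7.39 and 6.56. Rptn encodes repetin, a fused-type S100 protein of the cornified envelope. For S100a10 the most like were Ism1 (r = 0.977), Npas2 (0.962), E2f5 (0.959), Klf15 (0.958) and Spock2 (0.956). These are descriptions over 8 points in few treatments.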

How the data were processed

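RNA sequencing of scraped epidermis gave 8 libraries in 6 groups of genotype and treatment. Trim Galore, STAR with the mm10 build and HTSeq were used to make the counts, per the submitters' processing notes. The sources used here do not give their versions, the annotation or the strand setting. The deposited files hold raw read counts per Ensembl gene, which the authors had not normalised.

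Symbols and coordinates came from GENCODE M21, in which 54165 of 54232 identifiers matched and 67 did not. Groups were read from the labels. Library totals were 16874233 to 22560098 counts, and the abundant transcript Gm26917 took 8.34% to 13.83% of counts in vehicle and 16.77% to 24.21% in treated libraries. Differences between vehicle replicates exceeded sampling noise (chi-square over its degrees of freedom 13.81 in KO and 31.08 in WT).

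Tests used edgeR 4.0.16 (R 4.3.3), with quasi-likelihood F tests, TMM scaling (factors 0.859 to 1.102) and a minimum count of 10 by treatment, with Benjamini-Hochberg adjustment over 19251 genes at 0.05. Treatment effects and the overall genotype effect were fitted additively (4 residual degrees of freedom), and the vehicle genotype effect and the interactions with 1 mean per group (2 residual degrees of freedom, with the spread of the vehicle pairs taken for single treated libraries). Standard errors are the log2 fold change over the square root of F. The fits were tested on simulated counts. CPM values were computed here from the deposited counts.

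All 10 members and the other S100 genes were named, with up to 2 genes per partner or marker list by smallest p, or the 5 most like genes by Pearson correlation among genes whose mean log2 CPM reached 2. Adgre1, Ager, Anxa2, Csf1r, Elane, Ly6g, Lyz2, Mmp8 and Mpo were added for their known roles after their values were seen. The members and lists were chosen with earlier results of these data known. Alternatives were RLE scaling, library size only, no filter, a minimum count of 50, DESeq2 1.42.0, limma-voom (limma 3.58.1), removal of Gm26917, 1 mean per group, each library left out, vehicle libraries alone with or without a replicate block, and the longest transcript as length. Promoter windows came from RefSeq on GRCm38.p6.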

Additional observations from a re-analysis of the deposited data

How the results depend on the processing

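Of 1050 repeated values of single members, 947 kept direction and side of the threshold, 8 lost a call, 56 gained one and 39 changed sign, none of these with a call in either setting. The cause of these changes was not tested. Treated groups of 1 library per genotype limit every interaction, and low counts limit S100a3, which a minimum count of 50 removed. Leaving out a vehicle library left 1 residual degree of freedom in the fits with 1 mean per group, so calls from those fits carry little weight.

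Scaling by library size only shifted the median of all genes by −0.23 with TPA (2846 higher and 6432 lower calls, against 4472 and 4380), by −0.22 for FA+TPA over vehicle (1953 and 4982, against 3347 and 2729) and by 0.17 and −0.20 in the TPA and FA interactions. It put S100a11 at −0.17 with TPA and −0.02 for FA+TPA over vehicle, and gave 2 members lower with FA, 1 lower for FA+TPA over vehicle (S100a1), 2 higher in KO vehicle epidermis (S100a8 and S100a9) and 3 genes in the TPA interaction. Without a low-count filter, 2 members were higher and 2 lower with FA, KO differed from WT in 1552 genes and 1 higher member over all treatments and in 2 higher members with vehicle, and the TPA interaction called 21 genes and 2 lower members. A minimum count of 50 gave 219 genes in KO vehicle epidermis and 0 in the TPA interaction (with edgeR, where the main count was 1).

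DESeq2 gave 0 members lower with FA, 272 genes in KO vehicle epidermis, 11 in the TPA interaction and 7 in the FA interaction. Limma-voom gave 0 members lower with FA, 0 genes in the TPA interaction, and changed sign for S100a8 (−0.25) and S100a9 (−0.13) in KO over all treatments and for S100a3 in KO vehicle epidermis (0.09) and the TPA interaction (−0.04). With 1 mean per group, 2 members were lower with FA and 450 genes differed in KO over all treatments.

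The replicate numbers are shared by the vehicle groups, but with 2 pairs they do not establish a pairing, since deviations of same-numbered libraries correlated at −0.112 over 12001 genes. A replicate block on the vehicle libraries gave 847 genes and 2 higher members, S100a8 at 2.38 and S100a9 at 1.82 (edgeR adjusted p = 1.59e-05 and 7.19e-07). Crossing the numbers, a pairing chosen after seeing the data, gave 1080 genes and 2 higher members.

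Leaving out 1 library at a time, genes called ran from 571 to 2367 with FA (1929 with all libraries), 2652 to 6051 for FA+TPA over vehicle (6076), 288 to 630 in KO over all treatments (690), 440 to 1465 in KO vehicle epidermis (418), 6 to 365 in the TPA interaction and 51 to 183 in the FA interaction. Members higher ran from 1 to 2 with FA, 0 to 2 in KO over all treatments, 0 to 4 in KO vehicle epidermis and 2 to 2 in the FA interaction. Members lower ran from 0 to 2 with FA, 0 to 1 for FA+TPA over vehicle and 0 to 2 in the TPA interaction.

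Log2 differences that changed sign when a library was left out ran, with TPA, from −0.29 to 0.31 for S100a1, −0.52 to 0.30 for S100a4 and −0.06 to 0.21 for S100a11. With FA they ran from −0.90 to 0.24 for S100a3, −0.64 to 0.18 for S100a4, −0.01 to 0.25 for S100a11 and −0.38 to 0.01 for S100a16, and S100a3 ran from −0.14 to 1.01 for FA+TPA over vehicle. In KO over all treatments they ran from −0.28 to 1.52 for S100a8, −0.02 to 1.29 for S100a9, −0.10 to 0.25 for S100a4, −0.04 to 0.13 for S100a6, −0.05 to 0.20 for S100a11 and −0.01 to 0.16 for S100a16. In KO vehicle epidermis they ran from −0.79 to 1.02 for S100a3, −0.29 to 0.08 for S100a4, −0.08 to 0.15 for S100a6, −0.03 to 0.24 for S100a10 and −0.18 to 0.47 for S100a11, and in the TPA interaction from −0.95 to 0.84 for S100a3 and −0.58 to 0.10 for S100a11.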

Other observations

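Markers of other cells of the epidermis differed between treatments as well. With TPA, 23.2% of all genes tested were higher and 22.8% were lower. Of 7 Langerhans cell genes, 1 was higher and 5 were lower with TPA, and their summed level was 622 and 481 CPM in KO and WT FA+TPA epidermis, 712 and 675 CPM in KO and WT TPA epidermis, and 903 to 1040 CPM in vehicle epidermis. Of 5 T cell genes, none was higher and 4 were lower with TPA, with sums of 7.67 and 10.4 CPM in KO and WT FA+TPA epidermis, 10.9 and 13.2 CPM in KO and WT TPA epidermis, and 27.7 to 52.2 CPM in vehicle epidermis. Of 6 melanocyte genes, 4 were tested, and 1 was lower with TPA, a share near that of all genes. The part of these cell types in the S100 values was not tested.

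Among the other members, the genes most like S100a16 over the 8 libraries were Pinlyp (r = 0.997), Lsm12 (0.995), Ube2c, Arl5a and Supt6 (0.994 each). Those most like S100a14 were Gltp (0.987), Il1f5 (0.986), Sult2b1 (0.985), Smpd1 (0.984) and Hopx (0.982). Gltp, Sult2b1 and Smpd1 encode proteins of glycolipid transfer, cholesterol sulfation and sphingomyelin breakdown. Those most like S100a6 were Wdr12 (0.983), C1qa (0.981), Serpina3n (0.98), Serpinb6a (0.98) and Dynll1 (0.976). Within the family, log2 CPM of S100a16 correlated with that of S100a8 at 0.98 and of S100a10 with S100a8 at −0.43, over the same 8 libraries and treatments.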
